A study of Mus musculus with 13 samples.

Results

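The 9 clonal lines described here each carry a relocated Sleeping Beauty transposon in F123 mouse embryonic stem cells, a line with 2 different parental genomes. They were taken from the series by their labels. The clones labelled 5kb, 20kb, 55kb, 70kb, 134kb and 260kb are the 6 kilobase clones, and those labelled 2Mb, 12Mb and 73Mb are the 3 megabase clones. They make up 9 of the 12 libraries analysed here, of 13 in the labels. The others used are a pool of cells after remobilization of the transposon (the remobilized pool), a pool with transposons mobilized from transfected plasmids (the plasmid pool) and a control without transposons.

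All 9 clones have the genotype rad21-dTag, in which the cohesin subunit Rad21 is fused to a tag that allows its degradation. The labels name no degrader treatment, and T7 in situ transcription is the only treatment they give. The 3 other libraries are wild type and came from another sequencing batch, so clones and pools differ in genotype and batch as well as in origin, and these cannot be told apart. Cells were grown in serum-free medium with 2i and LIF. Each clone is 1 line and 1 library, with no replicate, and the clones of a class are different lines at different positions. Intervals on reads treat each read as a separate molecule and cover counting error only. The counts carry no molecular identifiers, so copies of 1 molecule cannot be told apart and the intervals may be too narrow.

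Sleeping Beauty moves by a cut-and-paste mechanism and inserts at TA dinucleotides, and a transposon that leaves its place often lands again nearby, a behaviour called local hopping. In the assay, T7 RNA polymerase reads outward from a promoter inside the transposon on purified genomic DNA, so that the RNA runs from the transposon end into the flanking genome. The first genomic base of a read then marks the insertion. Each deposited count is the number of reads at 1 base and strand, and 1 line marked * holds the reads without a position.

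Positions within 10 bp were taken as 1 site, and the chromosome 6 site with the most reads was the main site of a clone. Every other site over 100 bp from it is called secondary. The kilobase clones held from 62 to 2409 reads and the megabase clones from 615 to 3319. The control held 1 read, on the * line, and 0 placed reads.

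The bases at an insertion can be shown only where an annotated transcript covers it. None of the 9 main sites lay in an exon, and their bases were not analysed here. Of the 43 secondary sites, 4 lay in exons, in 3 genes, and are shown because Sleeping Beauty uses TA as its target. The bases are from GENCODE transcripts of GRCm38, written in the direction of the read from the transposon side to the genome side, with the deposited base in capitals.
Npat, 5kb clone, chr9:53572889-53572918, plus strand, 1 read: actgtacagctttgaCactgtatattgtac
Arsb, 2Mb clone, chr13:93873723-93873752, minus strand, 1 read: aaaaggaaatatcaaGagtttctgagaaag
Arsb, 2Mb clone, chr13:93873788-93873809, minus strand, 2 reads: attactcCtccttttattgcta
CT010467.1, 2Mb clone, chr17:39846386-39846415, minus strand, 1 read: acttagacatgcatgGcttaatctttgaga

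None of these 4 sites had a TA within 2 bp of the deposited base (0 of 4, 95% exact Clopper-Pearson interval 0 to 60.2%). The interval counts all 4 as separate. The 2 Arsb positions, at 93873737 and 93873802, are from the same clone and strand and may not be separate insertions. The nearest TA lay 5 bp away on the genome side at the Npat site, 5 and 4 bp away on the transposon side at the Arsb sites and 3 bp away on the genome side at the site in CT010467.1. Read the same way, 50 of 54 exonic sites of the remobilized pool had a TA within 2 bp (92.6%, exact interval 82.1 to 97.9). Among the exonic sites of that pool with 1 read, 17 of 20 did (exact interval 62.1 to 96.8%). The Npat site lies in a UTR, and Npat encodes a coactivator of histone gene transcription. The Arsb positions lie in an exon of a noncoding transcript of Arsb, the gene of the lysosomal enzyme arylsulfatase B. Both Arsb positions are on the strand opposite to that gene and lie in the same exon. CT010467.1 is an annotated rRNA gene. The 4 exonic secondary sites, with 1 or 2 reads each, thus had no TA at this limit of 2 bp.

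The main sites of the 6 kilobase clones lay in 1 neighbourhood of chromosome 6, and those of the 3 megabase clones in 3 others. The kilobase main sites spanned 254.5 kb, from position 51321894 in the 5kb clone to position 51576422 in the 260kb clone. Measured from the main site of the 5kb clone, the 2Mb clone lay 2.03 Mb toward lower coordinates, the 12Mb clone 12.8 Mb toward lower coordinates and the 73Mb clone 73.6 Mb toward higher coordinates.

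**Figure D1:**
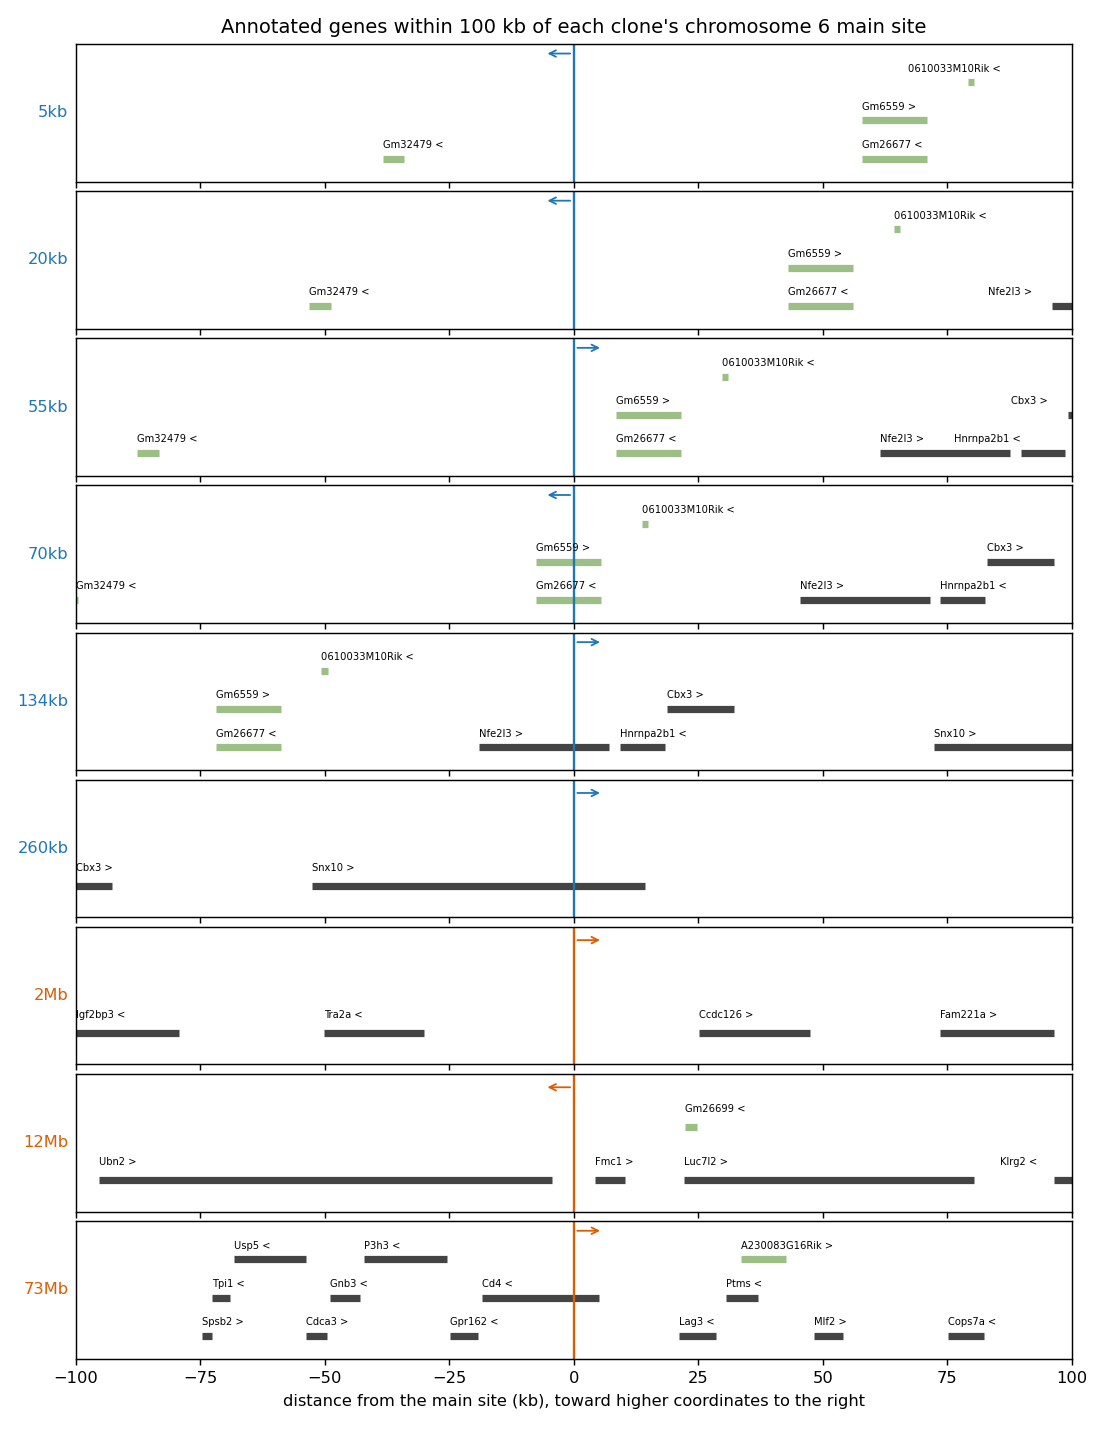
Protein-coding genes (dark) and long noncoding RNA genes (green) within 100 kb of the main site of each clone. The x axis is the distance from the main site in kb, the vertical line is the main site, its arrow the strand of the reads, and > or < after a name the gene's strand. Genes of the kilobase clones (blue) recur from panel to panel because the windows overlap, while the megabase clones (orange) have different neighbours, and Fmc1 begins 4.32 kb from the main site of the 12Mb clone.

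The kilobase clones 5kb, 20kb and 55kb had their main sites between the same genes. These are the lincRNA genes Gm32479, on the side of lower coordinates, and Gm26677, on the other. The nearest protein-coding gene was Nfe2l3, which encodes a CNC-family bZIP transcription factor, and its near end was 110.8, 96.0 and 61.5 kb away. On the other side the nearest protein-coding gene was Npvf, a neuropeptide precursor gene, from 667.5 to 716.7 kb away. These 3 sites therefore lay in the same stretch without protein-coding genes.

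The other 3 kilobase clones had their main sites inside genes. The 70kb site, at 51387333 on the minus strand, lay in introns of Gm26677 (51379710 to 51392777, minus strand) and of Gm6559 (51379710 to 51392791, plus strand), lincRNA genes that overlap on opposite strands. The 134kb site, at 51451618 on the plus strand, lay in an intron of Nfe2l3 (51432670 to 51458768, plus strand), 18.9 kb from the gene's start. Hnrnpa2b1, the gene of an RNA-binding protein of the spliceosome-associated hnRNP family, ended 9.31 kb farther on. The 260kb site, at 51576422 on the plus strand, lay in an intron of Snx10 (51523901 to 51590679, plus strand), 52.5 kb from its start. Snx10 encodes a sorting nexin of endosomes. At both of these protein-coding genes the reads ran in the direction of the gene.

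Among the megabase clones only the 73Mb main site lay in a gene. It was at 124883210 on the plus strand, in an intron of Cd4 (124864692 to 124888221, minus strand), 5.01 kb from that gene's start and against its direction. Cd4 encodes the coreceptor of helper T cells. Its neighbours were Gpr162, an orphan receptor gene, 19.2 kb below, and Lag3, an inhibitory receptor gene of T cells, 21.2 kb above. The 12Mb site, at 38529186 on the minus strand, lay between Ubn2, a ubinuclein gene, and Fmc1, which encodes an assembly factor of the mitochondrial ATP synthase. It was 4.36 kb from the end of Ubn2 and 4.32 kb from the start of Fmc1. The 2Mb site, at 49294140 on the plus strand, lay between the pseudogene Gm18011, 6.86 kb below, and Ccdc126, 25.1 kb above. The nearest protein-coding gene below it was Tra2a, a splicing regulator gene, 30.1 kb away.

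In all, 3 of 6 kilobase and 1 of 3 megabase main sites lay in an annotated gene (two-sided Fisher's exact test, p 1, adjusted p 1 over the 8 tests of class differences). With protein-coding genes alone the counts were equal as shares, at 33.3% of each class, and with genes extended by 5 kb the megabase share was the higher one, 66.7% against 50%. Reads of 3 kilobase main sites (55kb, 134kb and 260kb) and of 2 megabase main sites (2Mb and 73Mb) were on the plus strand (Fisher's exact test, p 1, adjusted p 1). With 9 clones, even a complete separation of the classes in 1 of these alone could not be called. Its adjusted p by Fisher's exact test would be 0.0952, so these tests do not decide whether the classes differ. No share of chromosome 6 in genes is given here as a background.

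Megabase main sites had more protein-coding gene starts within 500 kb, while within 100 kb the classes overlapped. Within 500 kb of the main site there were 4 protein-coding gene starts in each of the 5 kilobase clones from 5kb to 134kb, and 5 in the 260kb clone. The 2Mb clone had 13, the 12Mb clone 14 and the 73Mb clone 47. Within 100 kb there were 0, 1, 3, 3, 4 and 1 in the kilobase clones, in the order of their names, and 4, 3 and 12 in the 2Mb, 12Mb and 73Mb clones. At 500 kb the classes did not overlap, but the kilobase windows cover largely the same genes and are not separate observations, so no test was made. For comparison, the median over chromosome 6 sites was 5 in both pools, and at least 13 starts were found at 33.2% of these sites in the remobilized and 21.8% in the plasmid pool. The distance to the nearest protein-coding gene start overlapped between classes. It was 18.3 kb (to Hnrnpa2b1) in the 134kb clone and 45.3 to 110.8 kb in the other kilobase clones, against 25.1 kb, 4.32 kb and 5.01 kb in the 2Mb, 12Mb and 73Mb clones.

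The remobilized pool shows how often its cells had landed near each clone position. Within 100 kb of the main site, leaving out the site itself, the pool had 45 sites for the 5kb clone, 50 for 20kb, 64 for 55kb, 64 for 70kb, 60 for 134kb and 29 for 260kb. For each of the 3 megabase clones it had 2. Within 1 Mb the class median was 125.5 other sites for the kilobase clones and 5 for the megabase clones. On all of chromosome 6 the pool had 244 sites. The nearest other site of the pool was 0.072 to 2.21 kb from the kilobase main sites and 10.9 to 38.9 kb from the megabase ones. In the plasmid pool, with far more sites, 0 to 3 lay within 100 kb of a kilobase main site and 2 to 5 within 100 kb of a megabase one. The windows of the kilobase clones again overlap, so these counts are a description of 1 neighbourhood. The remobilized pool was thus denser around the kilobase main sites than around the megabase ones. How often other windows of chromosome 6 hold as many pool sites is not given here, so the counts within 100 kb have no such background. Whether the pool was sparse around the megabase main sites against chromosome 6 as a whole was not tested.

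**Figure D2:**
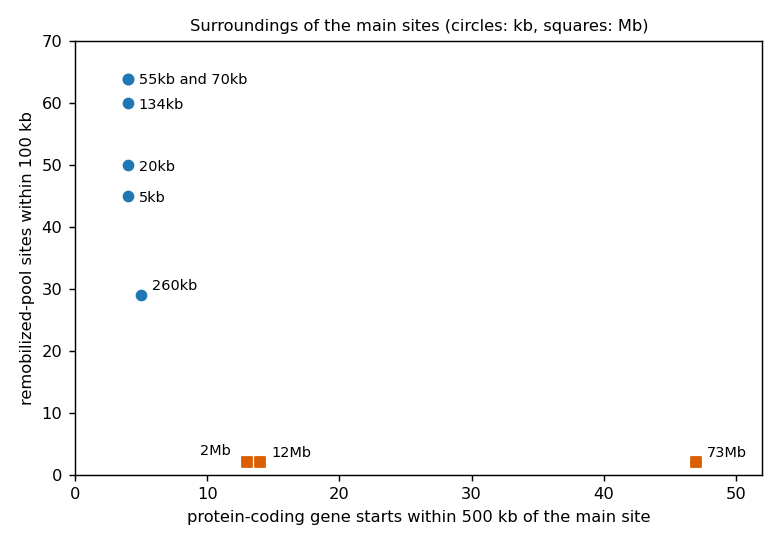
Each point is 1 clone (circles kilobase, squares megabase). The x axis is the number of protein-coding gene starts within 500 kb of the main site and the y axis the number of remobilized-pool sites within 100 kb, the main site itself left out. The kilobase clones lie at 4 or 5 starts and 29 to 64 pool sites, the megabase clones at 13 to 47 starts and 2 pool sites.

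The exact base and strand of the main site was also present in the remobilized pool for 3 of 6 kilobase clones, 5kb with 3 reads, 134kb with 10 and 260kb with 1. It was present for 1 of 3 megabase clones, 73Mb with 1 read. In the plasmid pool none of the 9 was present.

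Reads around a main site lay on 1 base almost without exception, and the rest lay on 1 side of it. Of the reads within 100 bp, the best base held 1550 of 1559 in the 5kb clone, 525 of 527 in 20kb, 55 of 55 in 55kb, 230 of 243 in 70kb, 1782 of 1793 in 134kb and 1098 of 1104 in 260kb. In the megabase clones it held 3032 of 3049 reads in 2Mb, 828 of 835 in 12Mb and 438 of 442 in 73Mb. Apart from the 70kb clone, at 94.7% (exact interval 91.0 to 97.1), every clone had between 99.1% and 100%. The mean was 98.8% ± 2.02 (SD, n = 6) in the kilobase class and 99.2% ± 0.184 (SD, n = 3) in the megabase class. The difference of 0.477 points was below the SD of the kilobase class and above that of the megabase class (two-sided exact permutation test, p 0.738, adjusted p 1). Without the 70kb clone the sign turned, and megabase minus kilobase was -0.344 percentage points (exact permutation p 0.107, adjusted p 0.857).

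The positions other than the best base numbered 20 in the kilobase and 13 in the megabase clones. All 33 were on the strand of the main site, and all 33 lay in the direction of that strand, that is toward higher coordinates at plus-strand sites and toward lower coordinates at minus-strand sites. Their distance was 2 to 60 bp, with a median of 5 bp in each class. None lay 1 bp away, and 25 lay 2 to 8 bp away, with 58 of the 69 reads. The TA on the transposon side of the Arsb positions, 5 and 4 bp away, lay within these distances. At the Npat site and the site in CT010467.1 the nearest TA lay on the genome side, 5 and 3 bp away. A link between these distances and TA was not tested. The chromosome 11 site of the 20kb clone had 2 such positions, 4 and 8 bp away on the same side. In the remobilized pool, 29 sites had at least 10 reads, and the 3 other same-strand positions within 100 bp of them lay on this side as well. In the plasmid pool such positions lay on both sides of the 199 sites with at least 10 reads, 96 in the direction of the strand and 70 against it. The number of positions within 100 bp, the best base included, was 7, 3, 1, 6, 5 and 4 in the kilobase clones in the order of their names, and 7, 5 and 4 in the megabase clones. The means were 4.33 ± 2.16 (SD, n = 6) and 5.33 ± 1.53 (SD, n = 3; two-sided exact permutation test, p 0.643, adjusted p 1).

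**Figure D3:**
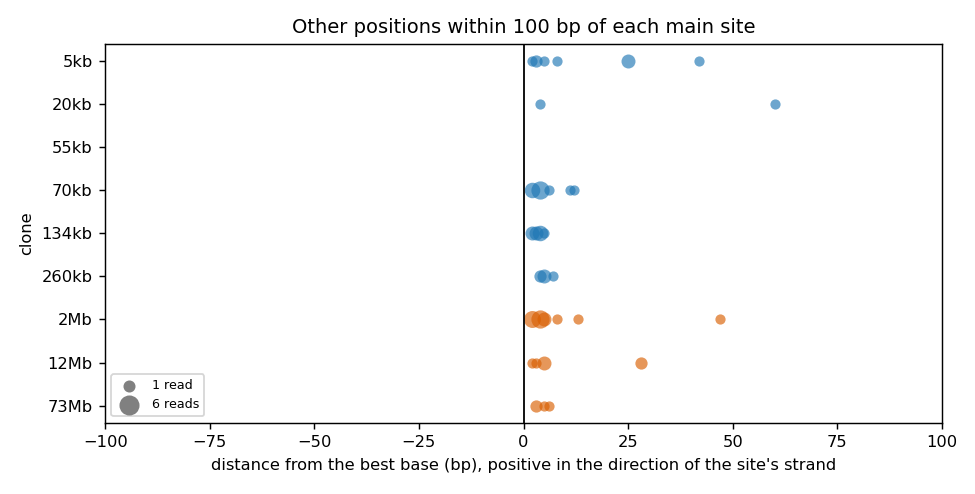
Positions with reads within 100 bp of each main site other than its best base, which is the line at 0. The x axis is the distance in bp, positive in the direction of the site's strand, each row is 1 clone (blue kilobase, orange megabase), and the point size grows with the reads. All 33 positions are to the right of 0, in both classes, and the 55kb clone has none.

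The main site took nearly all placed reads in 7 of the 9 clones. This is in part fixed by its choice as the chromosome 6 site with the most reads. Its share was 99.6% in the 5kb clone (1555 of 1562), 48.0% in 20kb (526 of 1095 reads), 100% in 55kb (55 of 55), 99.6% in 70kb (243 of 244), 99.8% in 134kb (1793 of 1796) and 85.4% in 260kb (1104 of 1293). It was 98.7% in 2Mb (3048 of 3088), 99.8% in 12Mb (833 of 835) and 100% in 73Mb (442 of 442). The lower values, of the 20kb and 260kb clones, were both in the kilobase class. The class means were 88.7% ± 20.7 (SD, n = 6) and 99.5% ± 0.689 (SD, n = 3). The difference of 10.8 percentage points was below the SD of the kilobase class and above that of the megabase class (two-sided exact permutation test, p 0.595, adjusted p 1). The smallest p that 84 divisions allow is 0.0238, which adjusts to 0.190 over 8 tests when 1 measure alone reaches it, so no single measure could be called. Without the 20kb clone the difference was 2.62 points.

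Placed reads themselves were 55 to 1796 in the kilobase clones and 442 to 3088 in the megabase clones, and the classes overlapped. On the log10 scale the means were 2.79 ± 0.601 (SD, n = 6) and 3.02 ± 0.430 (SD, n = 3; two-sided exact permutation test, p 0.667, adjusted p 1). Megabase minus kilobase turned to -0.154 with class medians and to -0.00424 without the 2Mb clone. The 55kb clone, with 55 placed reads, limits what can be said of it most. A count of 0 was taken to allow up to 3 reads. In the 55kb clone this allows secondary sites with up to 5.45% of placed reads, against 0.0972% at the depth of the 2Mb clone. The two-sided exact interval for the 55kb clone reaches 6.49%.

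**Figure D4:**
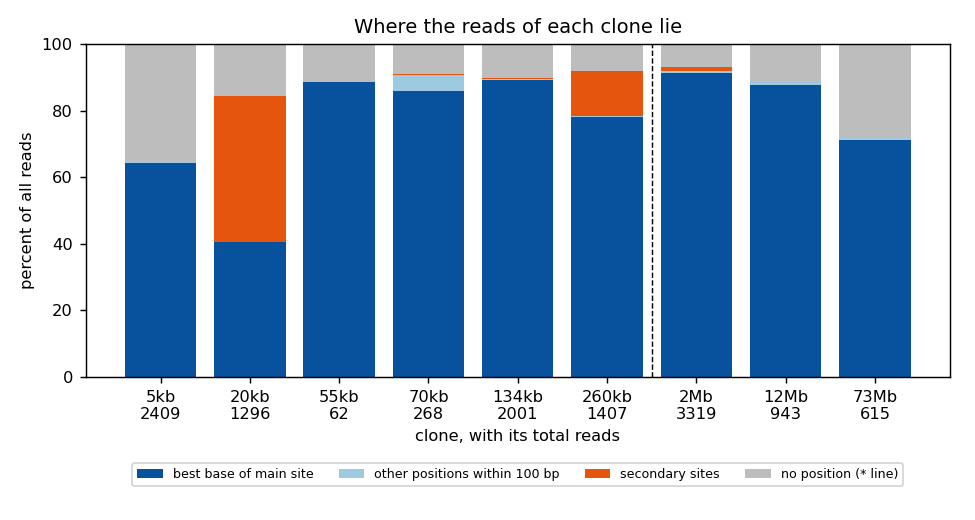
Share of all reads of each clone, in percent, on the best base of the main site, at other positions within 100 bp, at secondary sites and on the * line. The clone's total reads stand under its name, and the dashed line separates kilobase from megabase clones. Secondary sites are a large part in the 20kb and 260kb clones, and the * line in the 5kb and 73Mb clones.

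Reads on the * line ranged widely in both classes. They made up 35.2% of all reads in the 5kb clone (847 of 2409, exact interval 33.3 to 37.1), 15.5% in 20kb, 11.3% in 55kb (7 of 62, 4.66 to 21.9), 8.96% in 70kb, 10.2% in 134kb and 8.10% in 260kb. The share was 6.96% in 2Mb (231 of 3319, 6.12 to 7.88), 11.5% in 12Mb and 28.1% in 73Mb (173 of 615, 24.6 to 31.9). The means were 14.9% ± 10.3 (SD, n = 6) and 15.5% ± 11.2 (SD, n = 3; two-sided exact permutation test, p 1, adjusted p 1). The sign of this difference turned without any one of 5 clones, and without the 73Mb clone the megabase mean was 9.21%. The highest value of each class, in the 5kb and 73Mb clones, lay above the 19.2% of the remobilized pool and the 19.5% of the plasmid pool, and all other clones lay below the pools. What the reads on the * line contain was not analysed here.

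Secondary sites were unevenly spread over the clones, and the spread did not follow the classes. The 5kb clone had 3, 20kb 1, 55kb 0, 70kb 1, 134kb 2 and 260kb 12, which gives 19 in the kilobase class. The 2Mb clone had all 24 of the megabase class, while 12Mb and 73Mb had 0 each. By the limit of 3 reads this allows sites with up to 0.359% and 0.679% of their placed reads (two-sided exact intervals up to 0.441% and 0.831%). The means were 3.17 ± 4.45 (SD, n = 6) and 8 ± 13.9 (SD, n = 3; two-sided exact permutation test, p 0.667, adjusted p 1). The direction rested on the 2Mb clone, which was also the deepest. Without it the megabase mean was 0, and at the depth of the shallowest clone, 55 placed reads, the expected number was 0.620 in the kilobase and 0.226 in the megabase class (two-sided exact permutation test, p 0.548).

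**Figure D5:**
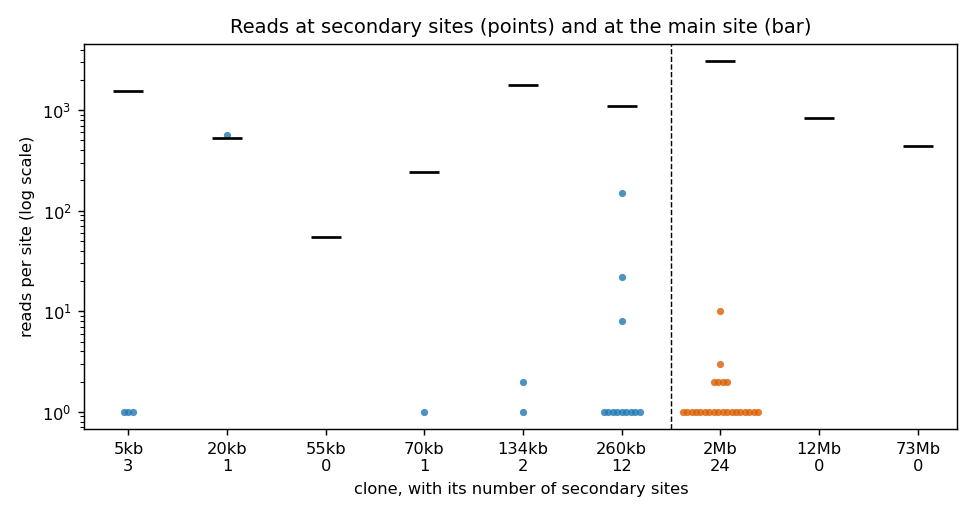
Reads at each secondary site (points, blue kilobase and orange megabase) and at the main site (black bars) of each clone, on a log scale, with the number of secondary sites under the name. The 20kb clone has a secondary site at the level of its main site, the 260kb clone has sites at 150, 22 and 8 reads, and the 24 sites of the 2Mb clone have at most 10 reads.

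In reads the order of the classes was the opposite of that in sites, with 764 secondary reads in the kilobase and 39 in the megabase class. Of the kilobase reads, 568 were at 1 site of the 20kb clone, on chromosome 11 at 6430192, minus strand. It lay in an intron of H2afv (6427229 to 6444443, minus strand), which encodes a histone variant of the H2A.Z type, 14.3 kb from the gene's start and in its direction. This site took 51.9% of the placed reads (exact interval 48.9 to 54.9), slightly more than the chromosome 6 site. The remobilized pool had 1 read at the same place. The nearest other genes were Ppia, the cyclophilin A gene, 10.4 kb below, and the processed pseudogene Gm11970, 16 kb above. The nearest protein-coding gene above was Purb, at 37.4 kb.

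The 260kb clone had 3 secondary sites above 2 reads. The site with 150 reads (11.6% of placed reads) was on chromosome 10 at 59207313, minus strand, in an intron of the septin gene Sept10 (59141627 to 59221847, minus strand) and in its direction. The site with 22 reads (1.70%) was on chromosome 1 at 174103501, 0.277 kb beyond the end of the olfactory receptor gene Olfr427. The site with 8 reads was on chromosome 1 at 51642656, outside genes. Neither pool had reads within 10 bp of any of these. The remaining 9 sites of this clone had 1 read each. Those inside genes were in introns of Mon2, an endosome-to-Golgi trafficking gene, Slc26a4, which encodes the anion transporter pendrin, Sun1, a nuclear envelope gene, Htr3b, a serotonin receptor subunit gene, and Pfkfb4, an enzyme gene of glycolytic control.

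In the 2Mb clone the best secondary site had 10 reads, 0.324% of its placed reads. It was on chromosome 11 at 30757531, plus strand, 1.38 kb beyond the lower-lying gene Gm12100 and 14.2 kb before the start of Psme4, which encodes a proteasome activator. Of the other 23 sites, 18 had 1 read, and the remaining 5 had 2 or 3. The sites lay on 12 chromosomes. Besides Arsb and CT010467.1, the genes that held them included Tom1l2, Rffl, Acaca, Mpp5, Vrk1, Adk, Gm5622, Unc5c, Gm13773 and Depdc5. Among these, Acaca encodes the acetyl-CoA carboxylase of fatty acid synthesis, Adk adenosine kinase, Unc5c a netrin receptor and Depdc5 a subunit of the GATOR1 complex. None of the 24 sites had reads within 10 bp in either pool or in another clone.

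The remaining kilobase clones had 6 secondary sites with 1 or 2 reads each. Besides Npat, the 1 gene that held one was Gm16675, a noncoding RNA gene on chromosome 8, in the 134kb clone with 2 reads. One site of the 5kb clone, on chromosome 11 at 109012100, had plasmid-pool reads within 10 bp.

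Most secondary sites lay on other chromosomes than 6. On chromosome 6 lay 1 of 19 in the kilobase class (5.26%, 0.133 to 26.0) and 4 of 24 in the megabase class (16.7%, 4.74 to 37.4). The 260kb clone had 0 of 12 there, and without it the kilobase share was 1 of 7 (14.3%). The main sites, all on chromosome 6, are left out of these shares by definition, so the shares cannot be set against those of the pools. Inside annotated genes lay 9 of 19 (47.4%) and 14 of 24 (58.3%). No share over the sites of the pools or over the genome is given here, so these shares have no background to be read against. Of those in genes, 7 of 9 in the kilobase class and 7 of 14 in the megabase class were on the gene's strand (77.8% and 50%). The 14 were all from the 2Mb clone and 6 of the 9 from the 260kb clone, so these are shares of single lines more than of classes, and they were not compared. No secondary site was shared within 10 bp by any pair of clones.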

How the data were processed

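Insertion reads of 9 clones, 2 pools and 1 control were analysed. The authors deposited whole-number read counts per single base and strand, without normalization, as the values show. The submitters' processing notes name mm10, FastQC, BWA and deepTools, with no role. The treatment of duplicates, filters and the choice of the junction base are not given in the sources used here. Lines within 10 bp on either strand were merged and placed at the base with the most reads. Positions are 1-based GRCm38 and were annotated with GENCODE M21.

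The members, lists and tests were chosen with earlier results of these data known. Class means were compared by two-sided exact permutation over 84 divisions, and gene and strand by Fisher's exact test, with Benjamini-Hochberg adjustment over 8 tests and a threshold of 0.05. The clones were the units, and p-values measure only the spread between these lines. Named genes were those holding or flanking main sites and secondary sites with at least 10 reads, and those holding other secondary sites, of which 1 is not reported here. The comparisons with the pools, of TA (with at least 5 exon bases on each side) and of surroundings were added after the data were seen.

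Python 3.11.15, NumPy 2.4.6 and SciPy 1.17.1 were used. On simulated data, merging found 1000 of 1000 planted sites. The permutation test of 6 against 3 gave an unadjusted p below 0.05 in 100% of 300 sets with a class difference of 5 SD, but after adjustment over 8 tests 1 such measure alone cannot pass.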

Additional observations from a re-analysis of the deposited data

Results flagged for a closer look

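Within the kilobase class, each of 6 measures was checked for a lowest or highest clone that stood far apart. Such a clone was found for 4 of the 6 measures. Chance gives about 1 in 20 groups for normally distributed values, which counts and shares bounded at 100% need not be. The 6 lines differ in position and origin, so they are not replicates, and the 3 megabase clones are too few for this check.

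The main site held 48.0% of placed reads in the 20kb clone, and the next lowest share was 85.4%, in the 260kb clone. The * line held 35.2% of all reads in the 5kb clone, and the next highest share was 15.5%, in the 20kb clone. The 260kb clone had 12 secondary sites, and the next highest number was 3, in the 5kb clone. The best base held 94.7% of the reads near the main site in the 70kb clone, and the next lowest share was 99.4%, in the 134kb clone. In the 70kb clone the 13 reads off the best base were spread over 5 positions from 2 to 12 bp away.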

How the results depend on the processing

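None of the 8 class differences was called by the exact permutation or Fisher's exact tests, and 0 of 8 had an unadjusted p below 0.05. Each of the 97 alternatives changed 1 measure and kept the others, so that none could give a call, and their lack of calls says nothing about stability. A complete separation of the classes in 1 measure gives an adjusted p of 0.190 by exact permutation and 0.0952 by Fisher's exact test, and 4 of the 8 measures would have to reach the smallest permutation p together. The smallest adjusted p seen, over permutation and Fisher's exact tests, was 0.857, and the values are therefore given as sizes and signs. All values below are megabase minus kilobase. With class medians the difference was -0.154 for log10 placed reads, -1.50 for secondary sites and -0.278 points for the best-base share, each with the sign turned. Secondary sites were also turned per 1000 placed reads (-0.297) and at the depth of the shallowest clone (-0.393). The share of main sites in genes differed by 0 points with protein-coding genes alone and by 16.7 points with genes extended by 5 kb. Leaving out 1 clone at a time gave -0.00424 to 0.418 for log10 placed reads, 2.62 to 13 points for the main-site share, -5.67 to 4.91 points for the * line, -3.17 to 8.83 for secondary sites, 0.167 to 1.67 for positions within 100 bp, -0.344 to 0.726 points for the best-base share, -50 to 0 points for main sites in genes and 0 to 50 points for the plus strand. The signs for placed reads and secondary sites turned without the 2Mb clone, that for the best-base share without the 70kb clone, and that for the * line without any one of 5 clones (55kb, 70kb, 134kb, 260kb or 73Mb). The cause was not tested. No paired analysis was possible because each clone has 1 library and all carry the same replicate number.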
